A study of Mus musculus with 3 samples.

Results

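The T cell receptor of αβ T cells is built from an α and a β chain, and each chain carries a variable (V) segment that was joined to other gene segments in the thymus. The 165 V segment symbols that start with Trav (130, α chain) or Trbv (35, β chain) were followed here, out of 33696 genes in the count tables. They were taken by name alone, and their use was read in spleen cells with at least 1 unique molecular identifier (UMI) of Cd3e, a subunit of the receptor complex, and none of Cd79a, a B cell gene. That gate held 8218 T cells of 49499 cells kept. In those cells 110 Trav and 26 Trbv symbols had at least 1 UMI, and the other 20 and 9 had none.

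The cells came from 3 spleen libraries of mice, 1 for each group, named Chow, MASH and MASH-Phe-free. MASH stands for a fatty liver disease with inflammation, metabolic dysfunction-associated steatohepatitis. The T cell gate held 3143 Chow, 2821 MASH and 2254 MASH-Phe-free cells, with median depths of 9124, 9138 and 8374 UMIs. The series text describes C3H mice given a high-fat diet and then a fat-rich diet deficient in methionine and choline, or a control diet, with HCA-1 liver cancer cells placed under the skin in both. It speaks of tumour RNA, and the strain, diet, age, tumour and number of mice behind each spleen library are not stated in the labels. The title of the series names phenylalanine without saying what the Phe-free group received. With 1 library in a group, differences between libraries were not tested, and their 95% intervals, in brackets, cover counting error only.

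As background, the V segment supplies most of the receptor surface outside the hypervariable loop formed at the junction, and it is chosen before a thymocyte becomes a CD4 or a CD8 cell. CD4 cells recognise peptide on class II and CD8 cells on class I molecules of the major histocompatibility complex. A naive T cell pool uses many segments, and cells that descend from 1 ancestor share both. The tables hold reads of V segments but no junction sequences, so a shared pair of segments does not show shared descent.

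The Trbv13 segments are shown because 2 of these 3 close copies differed between CD4 and CD8 cells in opposite directions. The final 294 bases of each coding sequence follow, from GENCODE M21 on GRCm38, 5′ to 3′. Capitals mark the 49 positions at which the 3 copies are not all alike.
Trbv13-1: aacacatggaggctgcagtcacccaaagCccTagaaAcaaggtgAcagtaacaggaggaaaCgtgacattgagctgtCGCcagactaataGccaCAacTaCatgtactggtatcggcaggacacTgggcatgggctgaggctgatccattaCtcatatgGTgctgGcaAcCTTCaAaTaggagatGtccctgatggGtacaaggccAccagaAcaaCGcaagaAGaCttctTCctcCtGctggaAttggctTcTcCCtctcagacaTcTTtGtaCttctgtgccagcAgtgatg
Trbv13-2: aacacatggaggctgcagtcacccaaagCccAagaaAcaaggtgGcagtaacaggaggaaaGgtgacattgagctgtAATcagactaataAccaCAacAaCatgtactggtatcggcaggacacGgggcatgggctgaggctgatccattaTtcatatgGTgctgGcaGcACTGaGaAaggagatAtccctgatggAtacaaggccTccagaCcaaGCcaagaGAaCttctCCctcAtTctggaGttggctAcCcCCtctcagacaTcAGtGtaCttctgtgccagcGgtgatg
Trbv13-3: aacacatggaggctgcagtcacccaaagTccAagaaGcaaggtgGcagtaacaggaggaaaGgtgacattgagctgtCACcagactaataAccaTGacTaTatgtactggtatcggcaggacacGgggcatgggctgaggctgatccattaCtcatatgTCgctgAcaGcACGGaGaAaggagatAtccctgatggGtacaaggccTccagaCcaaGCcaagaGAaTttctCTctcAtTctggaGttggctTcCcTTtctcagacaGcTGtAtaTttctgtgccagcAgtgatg
Trbv13-2 and Trbv13-3 were 90.6% identical, Trbv13-1 and Trbv13-2 87.4%, and Trbv13-1 and Trbv13-3 85.0%. All 35 Trbv symbols had at least 98.8% of their 50-base windows in no other Trav or Trbv symbol of that annotation. In that annotation the β segments could thus be told apart from each other, while the α segments often could not. Windows were not compared with other genes. The strain of these mice is not stated in the labels, and sequences of other strains were not checked. Of 128 matched Trav symbols, 39 had no window of their own and a median of 5 UMIs, and 11 of the 39 had no UMI at all. The 54 with at least 50% unique windows had a median of 541 UMIs, and 6 had none. Duplicated Trav copies were therefore also joined into families by the number that follows Trav.

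The 8 T cell markers summed to 3860, 4420 and 4140 CPM (UMIs of a gene scaled to a common total per sum of cells) in Chow, MASH and MASH-Phe-free. The B cell list was at 17.3, 16.8 and 14.9 CPM, with Cd79a at 0 by the gate itself. Neutrophil genes were at 2680, 681 and 3730 CPM and erythroid genes at 230, 3670 and 1320 CPM in the same cells, and their part in the results was not tested. Natural killer cell genes were at 23.8, 23.7 and 16.3 CPM. Between 72 and 102 barcodes were shared by any 2 libraries.

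A Trbv UMI was found in 94.8%, 94.7% and 94.9% of T cells and a Trav UMI in 86.7%, 89.0% and 86.3%. In B cells, which should lack both, the shares were 1.07%, 0.965% and 0.735% for Trbv and 1.45%, 1.51% and 1.18% for Trav, at median depths of 8147, 8014.5 and 7882 UMIs. With T cells thinned to 4751 UMIs, which left out 282, 257 and 282 shallower cells, the Trbv shares were 94.1%, 95.9% and 96.0% and the Trav shares 81.2%, 84.3% and 83.1%. A cell was assigned to the segment with strictly the most UMIs of its chain. This gave a leading Trbv segment to 2912, 2624 and 2093 cells and a leading Trav segment to 2503, 2273 and 1758 cells.

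Use of the β segments was uneven, with a similar set of segments on top in each library. The same 11 segments each led at least 4% of assigned T cells in every library and together led 88.7% to 90.7%. Trbv19 came first, with 13.3% of Chow, 13.3% of MASH and 13.8% of MASH-Phe-free cells. Next came Trbv31 with 10.2%, 7.89% and 8.55%, Trbv13-1 with 9.75%, 9.72% and 9.99%, and Trbv13-3 with 9.72%, 9.64% and 9.65%. Trbv1 led 8.86%, 9.6% and 7.84%, and Trbv5 led 8.83%, 8.99% and 8.79%. The segments below them, Trbv20, Trbv13-2, Trbv4, Trbv2 and Trbv12-2, led between 4.35% and 7.8%. The place of Trbv12-2 depended on cells with UMIs of 2 Trbv segments, described below. Without those cells its mean share over libraries fell from 5.6% to 2.65%, under the 4% used here. From Trbv31 to Trbv5 the order changed from library to library, so these neighbours were not separated.

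Some β segments were nearly absent. As background, in mouse strains that carry certain endogenous retroviruses, viral superantigens shown by the class II molecule I-E remove T cells that use particular β segments. H2-Ea, which encodes its α chain, was at 98.2, 94.0 and 83.3 CPM in the B cells, and H2-Eb1, the β chain, at 2800, 2700 and 2510 CPM. Trbv26 led 0.0687%, 0.114% and 0.191% of T cells. Trbv15 led 0.24%, 0.191% and 0.143%, and Trbv16 led 0.755%, 0.648% and 0.717%. Trbv12-1 led 0.824%, 0.495% and 0.764%, while Trbv12-2, 88.2% identical to it, led 4.6%, 6.36% and 5.83%. Without cells with 2 Trbv segments the mean share of Trbv12-2 was 2.65%. Trbv17 led 1.68%, 1.71% and 1.34%. What set these levels was not tested.

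The α chain was spread over more segments. In Chow, 2 cells shared a leading Trbv segment with a probability of 8.26% and a leading Trav segment with 2.6%, as if 12.1 β and 38.5 α segments were used equally. The MASH values were 12.5 and 36.5, and the MASH-Phe-free values 12.3 and 36.6. By family, 10 Trav families each led at least 4% of cells in some library and jointly led 84.0% to 86.6%. Trav7 came first with 12.8%, 13.1% and 13.7%, and Trav9 followed with 10.5%, 11.1% and 11.5%. Trav14, Trav6, Trav3 and Trav13 each led between 8.04% and 10.7%, and Trav16 was last of the 10 with 4.54%, 4.49% and 4.46%.

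Many cells held UMIs of more than 1 β segment, and for Trbv12-2 as the extra segment the share followed the order of the locus on chromosome 6. At least 2 UMIs of each of 2 Trbv segments were present in 24.0%, 28.0% and 23.7% of cells with such a segment, and in 15.0%, 16.3% and 13.8% when Trbv12-1, Trbv12-2 and Trbv13-2 were left out. Trbv12-2 lies just upstream of Trbv13-2 and had a UMI in 66.4% of the cells led by it, at 62.6%, 77.4% and 59.7% in the 3 libraries. It was found in 32.8% of cells led by Trbv13-3 and 35.3% of those led by Trbv14, further downstream, then in 24.1%, 23.0% and 13.4% of those led by Trbv16, Trbv17 and Trbv19. Among cells led by Trbv31, the last segment of the order, 4.69% had it. The 7 upstream segments shown had it in 3.19% to 9.52% of their cells, the highest being Trbv3 with only 42 cells. In the GENCODE M21 annotation, Trbv12-2 and Trbv13-2 were 41.6% identical and shared no 50-base window. No exact read of that length could thus come from both. Trbv13-2 in turn had a UMI in 77.1% of cells led by Trbv12-2. Whether such cells held a second true receptor, 2 cells in 1 droplet or transcripts that span neighbouring segments was not tested.

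**Figure D1:**
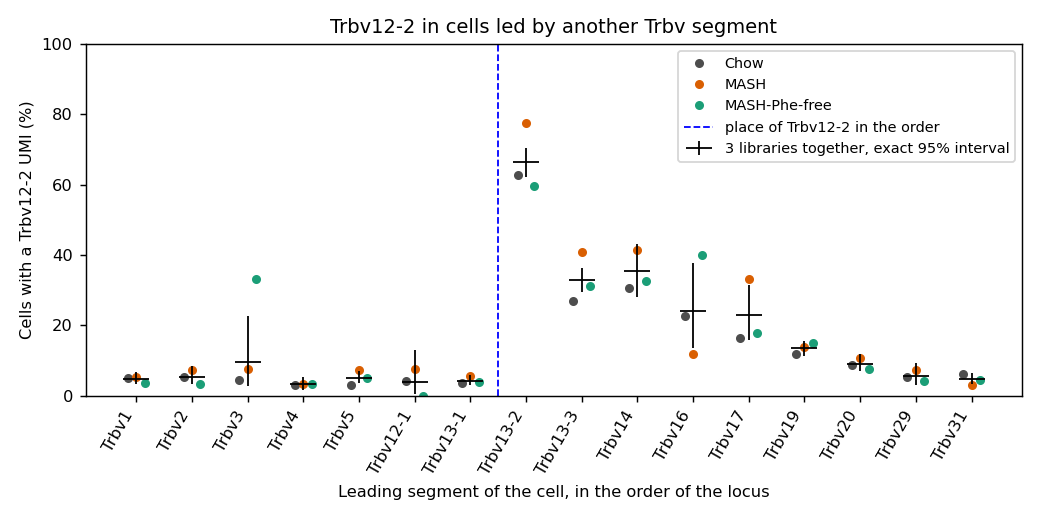
Share of cells with a Trbv12-2 UMI (percent, vertical axis) among cells led by each other Trbv segment, in locus order (horizontal axis). Coloured points are libraries and black marks the 3 libraries together with exact 95% intervals; the share is 66.4% in Trbv13-2 cells and 4.28% in Trbv13-1 cells on the other side of Trbv12-2.

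CD4 and CD8 cells were compared next. CD4 cells (Cd4 present, Cd8b1 absent) numbered 1553, 1329 and 1027, and CD8 cells (Cd8b1 present, Cd4 absent) 1104, 1063 and 830. CD4 cells used Trbv2, Trbv20, Trbv5 and Trbv4 more, and CD8 cells used Trbv13-3, Trbv14 and Trbv29 more, in every library. UMIs were summed per library and gate and tested with edgeR over all genes, the library being a block, and a gene was called at a Benjamini-Hochberg adjusted p under 0.05. Of the 165 members, 85 passed the filter on low counts and 42 were called, 30 higher in CD4 and 12 higher in CD8 cells. Over all 12943 genes tested 29.2% were called. The median log2 fold change was 0.298 over the 85 members and -0.000618 over all genes. The direction was the same in all 3 libraries for each of the 42, and for 34 of them the 3 CD4 values did not overlap the 3 CD8 values. Neither count was taken over all genes, so neither sets the V segments apart from other called genes. With UMI totals in place of TMM scaling, 36 were higher and 11 lower, and Trbv19 was no longer called. Sums mix the number of cells with the RNA per cell, so shares of cells led are given beside them.

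**Figure D2:**
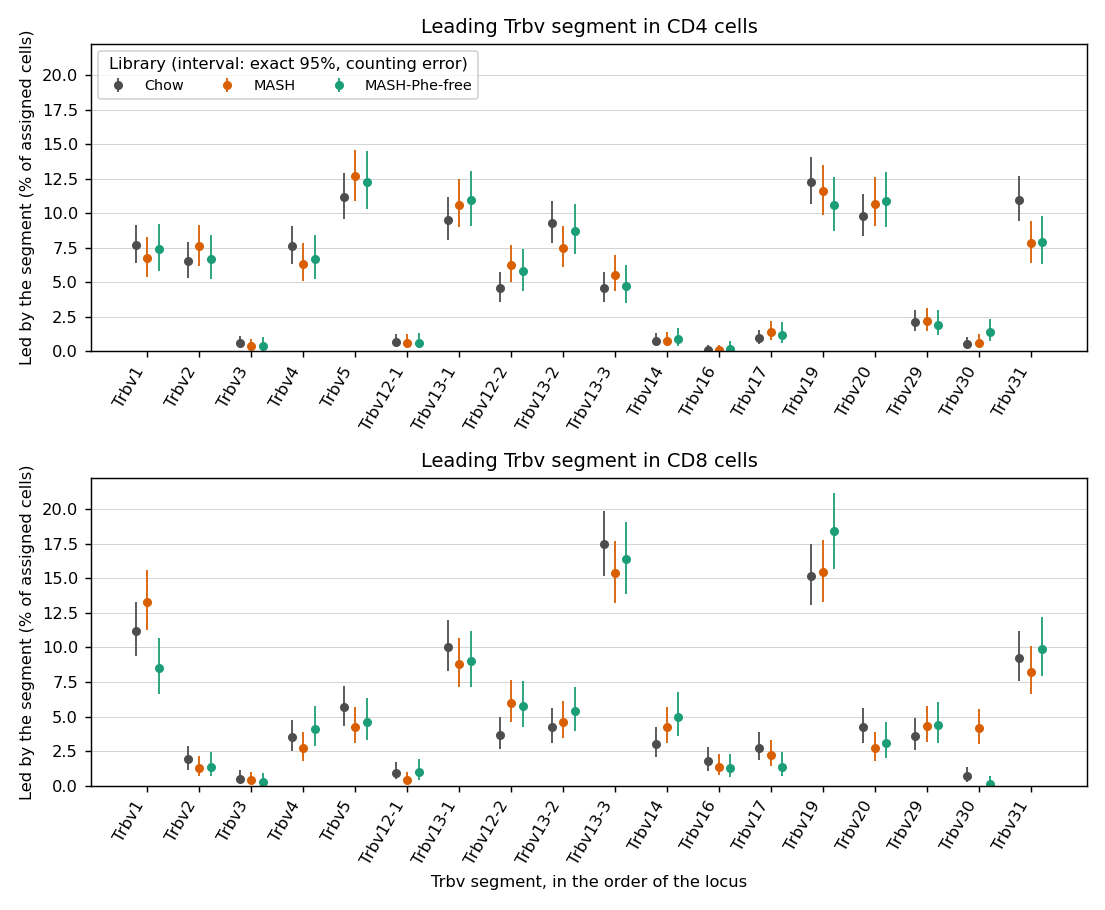
Share of assigned cells led by each Trbv segment (percent) in CD4 cells (top) and CD8 cells (bottom) with exact 95% intervals, segments in locus order, coloured by library. Trbv13-3 sits between 4.57% and 5.56% in CD4 and between 15.4% and 17.5% in CD8 cells of the 3 libraries.

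Trbv13-3 had 76.4, 113 and 78.4 CPM in CD4 cells of Chow, MASH and MASH-Phe-free, against 234, 268 and 226 CPM in CD8 cells. All 3 CD8 values were above all 3 CD4 values, and the log2 fold change of CD4 over CD8 was -1.55 ± 0.07 (SE, edgeR adjusted p = 4.37e-06). It led 4.57%, 5.56% and 4.77% of CD4 and 17.5%, 15.4% and 16.4% of CD8 cells. Its close copy Trbv13-2 went the other way, at 99.8, 95.3 and 89.6 CPM in CD4 against 46.6, 61.9 and 54.1 in CD8 cells (log2 0.72, edgeR adjusted p = 0.000511). It led 9.28%, 7.52% and 8.73% of CD4 against 4.25%, 4.64% and 5.38% of CD8 cells. Trbv13-1 was at 186, 235 and 215 against 157, 163 and 176 CPM (log2 0.26, edgeR adjusted p = 0.0133). Its ratios of led shares were 0.954, 1.21 and 1.22, each with an interval that included 1, so its call was not seen in cells led. Of the copies printed above, Trbv13-3 and Trbv13-2 thus differed in opposite directions.

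Trbv2 was the β segment with the largest excess in CD4 cells. It had 39, 59.3 and 45.2 CPM there and 11.3, 7.56 and 11.2 in CD8 cells, a log2 fold change of 2.15 ± 0.19 (edgeR adjusted p = 0.000134). It led 6.52%, 7.6% and 6.7% of CD4 cells and 1.89%, 1.26% and 1.38% of CD8 cells. Trbv20 followed, at 119, 145 and 159 against 49.9, 37.7 and 31.6 CPM (log2 1.70 ± 0.16), and led 9.82%, 10.7% and 10.9% of CD4 against 4.25%, 2.71% and 3.12% of CD8 cells. Trbv5 led 11.2%, 12.7% and 12.3% of CD4 against 5.67%, 4.25% and 4.62% of CD8 cells (log2 1.34 ± 0.11). Trbv4 led 7.6%, 6.34% and 6.7% against 3.49%, 2.71% and 4.12% (log2 1.20 ± 0.06). For each of these 4 segments the CD4 and CD8 values did not overlap.

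On the CD8 side, Trbv14 had 31.3, 69.8 and 62.2 CPM against 12.5, 10.6 and 16.4 in CD4 cells (log2 -2.09 ± 0.21, edgeR adjusted p = 0.000232). It led 3.02%, 4.25% and 5.0% of CD8 cells and under 1% of CD4 cells. Trbv29 had 67.9, 65.2 and 70.1 CPM in CD8 against 39.7, 40.3 and 35.2 in CD4 cells (log2 -0.91). Trbv17 had a log2 fold change of -0.85. Trbv16 had the largest fold, at 31.8, 24.6 and 34.5 CPM in CD8 against 4.37, 6.28 and 5.13 in CD4 cells (log2 -2.60 ± 0.17, edgeR adjusted p = 2.4e-05). It led only 54 cells in all, with 19, 14 and 10 in CD8 and 2, 1 and 2 in CD4 cells, and counted as cells with a UMI its fold was -0.56 (edgeR adjusted p = 0.0998). Trbv1 was not called (log2 0.02, edgeR adjusted p = 0.954), with 223, 210 and 223 CPM in CD4 and 180, 296 and 151 in CD8 cells. Trbv15 was not called either (log2 -0.58, edgeR adjusted p = 0.294). Trbv31 (log2 0.23) and Trbv12-2 (0.16) were called towards CD4 by UMIs but not by cells led. Trbv31 led 11% of CD4 against 9.25% of CD8 cells in Chow, 7.83% against 8.21% in MASH and 7.92% against 9.88% in MASH-Phe-free, the opposite direction in the last 2. For Trbv12-2 the ratios of led shares lay between 1.01 and 1.24, each with an interval that included 1. Trbv19 was called towards CD8 (-0.27, edgeR adjusted p = 0.0377) and led 12.3%, 11.6% and 10.6% of CD4 against 15.2%, 15.5% and 18.4% of CD8 cells.

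**Figure D3:**
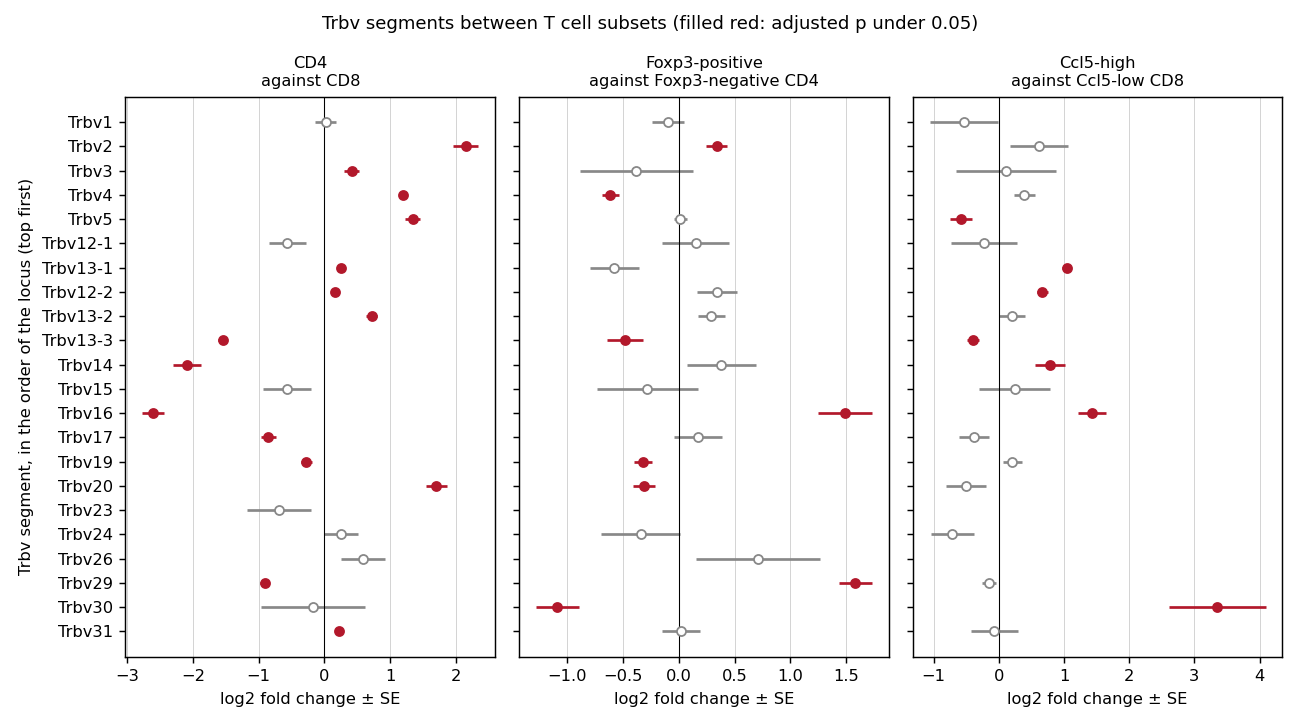
log2 fold change with its standard error (horizontal axis) of each tested Trbv segment (vertical axis, locus order) in the 3 comparisons of T cell subsets; filled red points have an edgeR adjusted p under 0.05. In CD4 against CD8 cells 15 of 22 (68.2%) were called, and in Foxp3-positive against Foxp3-negative CD4 cells 8 of 21 (38.1%). In Ccl5-high against Ccl5-low CD8 cells 7 of 20 (35%) were called. Over all genes tested the shares were 29.2%, 39.8% and 36.9%.

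Among α segments, 27 of 63 tested (42.9%) were called, 21 higher in CD4 and 6 in CD8 cells. Over all genes tested 29.2% were called, 15.8% higher in CD4 and 13.4% higher in CD8 cells. Trav4-2 had 17.3, 25.1 and 28.2 CPM in CD4 and 2.08, 4.0 and 5.62 in CD8 cells (log2 2.55 ± 0.15). Trav4-4-dv10, a segment that can also join in δ chains, had 47.4, 43.0 and 42.3 against 11.9, 4.6 and 13.7 CPM (log2 2.10). Trav21-dv12 had 29, 43 and 34 against 11, 6.6 and 7.73 CPM (log2 1.95), and Trav14n-3 and Trav6-1 had log2 fold changes of 1.62 and 1.61. On the CD8 side Trav9-4 had 28.8, 40.9 and 25.5 CPM against 20.6, 15.5 and 16.7 (log2 -0.93), and Trav17 rose too, from 7.55, 4.56 and 6.26 to 7.9, 9.99 and 18.6 CPM, a call lost in 6 of 13 alternatives. By family, Trav4 led 9.34%, 9.56% and 11.6% of CD4 against 4.48%, 3.2% and 5.38% of CD8 cells. The Trav12 family led 4.67%, 4.18% and 4.38% of CD4 against 9.28%, 7.28% and 9.74% of CD8 cells.

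Foxp3, the transcription factor of regulatory T cells, divided the CD4 cells into 361, 339 and 300 positive and 1192, 990 and 727 negative cells. By summed UMIs, Foxp3-positive cells had more Trbv29 and Trav6-1 and less Trbv4 and Trbv30, in all 3 libraries. Of 77 members tested 18 were called, 7 higher and 11 lower, and over all 11751 genes tested 39.8% were called, 21.3% higher and 18.6% lower. The scaling mattered for the split, since UMI totals moved the median of all genes from -0.02 to 0.15 (log2) and gave 12 higher and 7 lower calls. The calls for Trbv19 (log2 -0.32), Trbv20 (-0.32) and Trbv13-3 (-0.48) were lost under that scaling, and each of the 3 went the other way in CPM in 1 library. Median depths were 8508, 8303 and 7569 UMIs in positive and 9090.5, 9446.5 and 8492 in negative cells.

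Trbv29 had 88.0, 71.0 and 77.5 CPM in Foxp3-positive and 23.9, 29.1 and 17.0 in Foxp3-negative CD4 cells. The 2 sets of values did not overlap, and the log2 fold change was 1.58 ± 0.15 (edgeR adjusted p = 7.24e-05). It led 4.27%, 4.04% and 4.07% of positive and 1.5%, 1.57% and 1.01% of negative cells. Trav6-1 had 43.2, 31.6 and 18.1 against 2.64, 6.02 and 1.03 CPM (log2 3.13 ± 0.32, edgeR adjusted p = 0.000114), and led 6.97%, 6.17% and 2.83% against 0.305%, 0.956% and 0.334% of cells. In Chow most of that share was 1 pair, Trav6-1 with Trbv31, in 16 of 281 Foxp3-positive cells with both chains assigned (5.69%). Trbv16 also rose (log2 1.49, edgeR adjusted p = 0.00155), from 3.08, 3.57 and 3.23 to 8.32, 13.7 and 9.55 CPM. Trbv2 rose by less (log2 0.34). Trav16n (log2 0.74) and Trav2 (0.85) rose with no overlap, Trav2 losing its call in 4 of 11 alternatives. Trav12-3 rose (0.57), and turned to -0.23 (edgeR adjusted p = 0.522) when cells with a UMI were counted.

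Among the segments that fell in Foxp3-positive cells, Trbv4 had 84.0, 66.6 and 74.4 CPM against 102, 101 and 103 (log2 -0.61 ± 0.07). Its ratio of led shares was 0.573 [0.347–0.946] in Chow. In MASH it was 0.847 [0.51–1.41] and in MASH-Phe-free 0.574 [0.318–1.04], both intervals including 1. Trbv30 had 6.17, 4.47 and 9.55 against 10.9, 10.3 and 16.7 CPM (log2 -1.09, edgeR adjusted p = 0.00245). Both fell without overlap. The largest falls were in scarce α segments, Trav20 (log2 -2.06) and Trav14-1 (-1.59), followed by Trav7d-3 (-1.03), Trav6d-5 (-1.01) and Trav14d-3-dv8 (-0.62). Trbv13-1 was not called (log2 -0.58, edgeR adjusted p = 0.0651).

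Ccl5, a chemokine of memory and effector T cells, divided CD8 cells into 200, 357 and 263 with at least 2 UMIs (Ccl5-high) and 904, 706 and 567 with fewer (Ccl5-low). By summed UMIs, Trbv13-1 was the segment with the steadiest difference, higher in Ccl5-high cells of every library. Of 70 members tested 12 were called, 5 higher and 7 lower, against 36.9% of all 11245 genes, 19.8% higher and 17.1% lower. With UMI totals, which moved the median of all genes from -0.02 to 0.11 (log2), 7 were higher and 2 lower. Only 3 of the 12 were also called when cells with a UMI were counted. Median depths were 9826.5, 9206 and 8263 UMIs in Ccl5-high and 10055.5, 9874 and 9530 in Ccl5-low cells.

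Trbv13-1 had 297, 252 and 279 CPM in Ccl5-high and 121, 117 and 126 in Ccl5-low CD8 cells, with no overlap (log2 1.04 ± 0.07, edgeR adjusted p = 3.43e-06). It led 18.1%, 11.2% and 10.9% of the former and 8.2%, 7.57% and 8.09% of the latter. The ratio of led shares was 2.21 [1.52–3.21] in Chow. It was 1.48 [0.998–2.2] in MASH and 1.35 [0.862–2.12] in MASH-Phe-free, where both intervals included 1. Trbv12-2 had 74.2, 117 and 95.6 against 47.2, 68.6 and 47.9 CPM (log2 0.67), a call lost without cells that held 2 Trbv segments. Trbv16 had 82.8, 33.7 and 64.4 against 18.8, 19.9 and 19.9 CPM (log2 1.43), but 0.32 (edgeR adjusted p = 0.539) by cells with a UMI. Trbv14 rose with overlapping values (log2 0.79, edgeR adjusted p = 0.0273). Trbv13-3, the segment that marked CD8 cells, was lower at 209, 207 and 224 against 240, 300 and 227 CPM (log2 -0.39), and this call was lost with UMI totals (edgeR adjusted p = 0.0541), as was that of Trbv5 (log2 -0.58). The 5 α segments called were all lower, with Trav7d-3 (-1.82), Trav4-3 (-1.53), Trav14d-3-dv8 (-1.26), Trav6-3 (-1.18) and Trav7-4 (-0.68), and overlapped in CPM in 2 of the 5. The call was lost in 9 of 11 alternatives for Trav7-4, 6 of 8 for Trav6-3, 5 of 10 for Trav7d-3, 2 of 11 for Trav4-3 and 1 of 11 for Trav14d-3-dv8, and 4 of the 5 had 1 direction in all 3 libraries. Trav6-3 rested on only 3 to 40 UMIs per sum, and Trav7d-3 had 0 UMIs in Ccl5-high cells of MASH.

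Trbv30 rested on 1 library. It had 5.3, 122 and 4.65 CPM in Ccl5-high and 5.22, 3.29 and 0 in Ccl5-low cells of Chow, MASH and MASH-Phe-free. The fitted log2 fold change was 3.36 ± 0.74 (edgeR adjusted p = 0.00616), and 1.02 without the MASH library (edgeR adjusted p = 0.0915). The number of members called also rose from 12 to 30 without the MASH library, to 22 without Chow, and was 14 without MASH-Phe-free. Over all genes 36.9% were called with the 3 libraries, and 34.2%, 27.9% and 28.3% in these fits.

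The other genes of receptor signalling and assembly were read from a list of 21, of which 18 were tested. Its counts stand beside 29.2%, 39.8% and 36.9% of all genes called in the 3 comparisons. The recombinase genes Rag1 and Rag2 and the pre-receptor chain Ptcra were too low to test. In CD4 against CD8 cells 9 rose and 2 fell, the largest rise being Cd28, a costimulatory receptor (log2 1.08), and Cd5, an inhibitory receptor (0.74). Cd3d, a subunit of the receptor complex, was among those that fell (-0.22). In Foxp3-positive cells 5 rose, such as the adhesion molecule Cd2 (0.78), and 5 fell, among them Cd247, the signalling ζ chain of the receptor (-0.38). In Ccl5-high CD8 cells 8 rose, such as the kinase Fyn (1.15) and Cd28 (1.06), and 2 fell. The list's median log2 fold change was 0.07, 0.02 and 0.08. Dntt, the enzyme that adds bases at receptor junctions, fell in both Foxp3-positive (log2 -3.05) and Ccl5-high cells (-5.25), at 0.408, 0 and 0 CPM against 4.18, 4.61 and 5.23 in the latter. The chain constants Trac and Trbc2 were not called in either. Trbc1, also a chain constant, was called lower in Foxp3-positive cells (log2 -0.197, edgeR adjusted p = 0.0495). Its CPM overlapped there, at 167, 171 and 173 in Foxp3-positive against 167, 196 and 159 in Foxp3-negative cells of Chow, MASH and MASH-Phe-free. In Ccl5-high cells Trbc1 was not called (log2 -0.006).

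With 1 library a group, libraries could be set side by side but not tested. In MASH over Chow T cells, 25 of 99 members with at least 20 UMIs were past a 1.5-fold ratio of CPM, 21 higher and 4 lower. Over all 14796 genes 11.7% were past it, 7.27% higher and 4.39% lower, and the median ratio was 1.11 over members and 0.997 over all genes. In MASH-Phe-free over MASH, 20 of 98 were past it, 7 higher and 13 lower, against 10.4% of 14513 genes, 5.17% higher and 5.2% lower, with a median ratio of 0.905. The split depended on the measure. By share of cells led, 4 of 66 were higher and 5 lower in MASH than in Chow, and 2 of 64 higher and 5 lower in MASH-Phe-free than in MASH. In the CD8 gate alone 36 of 86 were past the ratio in MASH over Chow, 21 higher and 15 lower, and 28 of 81 in MASH-Phe-free over MASH, 10 higher and 18 lower, against 11.8% and 8.45% of all genes there. Neutrophil and erythroid RNA, given above, moved between the same libraries. The share of T cells with at least 2 Ccl5 UMIs was 12.9% in Chow, 21.4% in MASH and 20.3% in MASH-Phe-free.

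Trbv30 stood farthest apart. It led 2.06% of MASH T cells, 0.515% of Chow (ratio 4.0 [2.26–7.06]) and 0.764% of MASH-Phe-free (MASH-Phe-free over MASH 0.371 [0.213–0.647]). Trav8n-2 led 1.85% of MASH against 0.919% of Chow cells (ratio 2.01 [1.21–3.33]), and MASH-Phe-free had 0.523 of the MASH share. Trbv12-2 led 6.36% of MASH and 4.6% of Chow cells (ratio 1.38 [1.11–1.73]), a ratio not taken without cells that held 2 Trbv segments. Lower in MASH than in Chow were Trav6-4 (ratio 0.535), Trav3-1 (0.619) and Trav4-4-dv10 (0.703). In MASH-Phe-free over MASH, Trav12-1 was at 2.28% against 1.1% (ratio 2.07 [1.26–3.4]), Trav4-4-dv10 at a ratio of 1.49 and Trav13-4-dv7 at 0.571. Of the segments leading at least 50 cells, 8 of 55 and 7 of 48 had intervals that excluded 1.

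The libraries lay farther apart among Ccl5-high CD8 cells. There Trbv30 led 1 of 193 cells in Chow (0.518%), 40 of 348 in MASH (11.5% [8.34–15.3]) and 1 of 256 in MASH-Phe-free (0.391%). Trbv1 led 5.7%, 20.1% [16.0–24.7] and 2.34%. Trbv19 led 13.5%, 14.4% and 25.4% [20.2–31.2], and Trbv31 led 15.0% [10.3–20.9], 3.16% and 7.42%. The Ccl5-low CD8 cells were closer together, with Trbv30 at 0.693%, 0.437% and 0%, Trbv1 at 12.5%, 9.9% and 11.4%, Trbv19 at 15.6%, 16.0% and 15.1%, and Trbv31 at 7.97%, 10.8% and 11%. In Foxp3-positive CD4 cells Trbv31 led 14.2% [10.8–18.3], 6.83% and 7.46%.

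**Figure D4:**
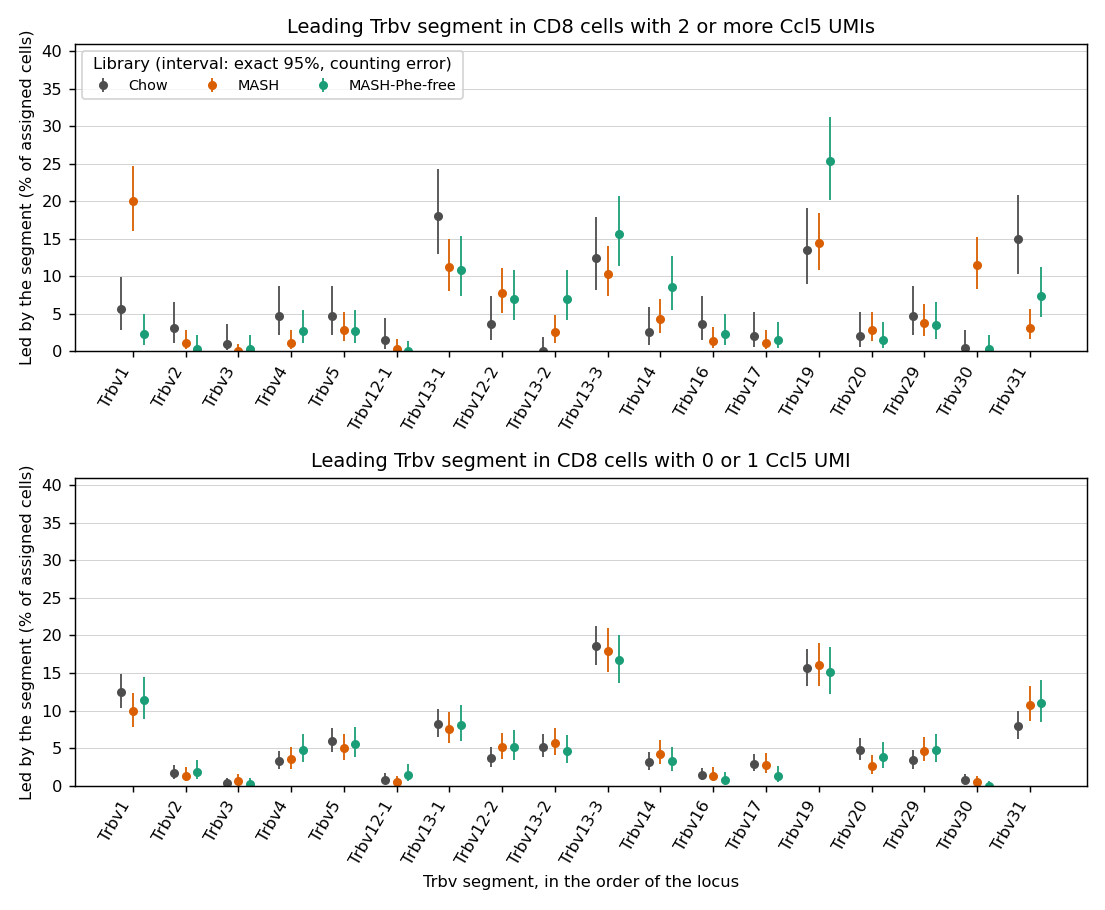
Share of assigned CD8 cells led by each Trbv segment (percent) with exact 95% intervals, in cells with at least 2 Ccl5 UMIs (top) and fewer (bottom), coloured by library. In the top panel Trbv1 and Trbv30 stand at 20.1% and 11.5% in MASH, Trbv19 at 25.4% in MASH-Phe-free and Trbv31 at 15.0% in Chow, while in the lower panel the libraries lie close together.

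Both chains of a cell were then read together. The pairs were picked after their values were seen and are described without a test. In Ccl5-high CD8 cells of MASH, 32 of 279 cells with both chains assigned (11.5% [7.98–15.8]) carried Trav9-4 with Trbv30, which was every Trbv30-led cell of that set. Nowhere else among the CD8 sets did the pair lead a cell, with 0 of 164 Ccl5-high cells in Chow, which allows a share of up to 1.83% (3 cells of the total, a floor for counting error only), 0 of 219 in MASH-Phe-free (up to 1.37%) and 0 of 579 Ccl5-low cells in MASH. The product of the 2 segments' shares corresponds to 5.05 cells. Both shares come from the same 279 cells and include the pair itself, so this product is no test of the pair. The final 294 bases of each segment's coding sequence follow because this pair led more cells of 1 library than any other. They are from GENCODE M21 on GRCm38, 5′ to 3′, and capitals run from the last in-frame cysteine codon, where the junction begins, to the end of the segment.
Trav9-4: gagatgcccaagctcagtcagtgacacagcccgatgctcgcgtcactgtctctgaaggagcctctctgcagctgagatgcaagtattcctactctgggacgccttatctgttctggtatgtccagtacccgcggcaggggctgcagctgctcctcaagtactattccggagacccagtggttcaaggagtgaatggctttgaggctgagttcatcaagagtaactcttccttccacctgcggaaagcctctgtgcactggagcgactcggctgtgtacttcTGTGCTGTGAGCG
Trbv30: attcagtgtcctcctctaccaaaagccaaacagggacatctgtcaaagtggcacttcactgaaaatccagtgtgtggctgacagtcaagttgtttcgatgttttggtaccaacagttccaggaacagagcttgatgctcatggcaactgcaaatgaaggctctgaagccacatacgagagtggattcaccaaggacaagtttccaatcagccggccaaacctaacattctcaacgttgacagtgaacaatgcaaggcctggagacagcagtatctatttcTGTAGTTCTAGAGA
Of the 50-base windows of Trav9-4, 44.2% were in no other Trav or Trbv symbol, so part of its UMIs could belong to a copy.

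The second pair in MASH was Trav8n-2 with Trbv1, in 18 of 279 Ccl5-high CD8 cells (6.45% [3.87–10]) and in none of the Chow and MASH-Phe-free cells of that kind. In MASH-Phe-free the leading pair was another, Trav9-2 with Trbv19, in 21 of 219 cells (9.59% [6.03–14.3]), and it led 0 of 164 Chow and 0 of 279 MASH cells. Trav12-3 with Trbv13-3 led 11 MASH-Phe-free cells. In Chow the leading pair of these cells was Trav12-3 with Trbv19 in 6 of 164. Of the sequence windows, 53.3% for Trav9-2, 71.9% for Trav8n-2 and 68.2% for Trav12-3 were in no other Trav or Trbv symbol. Trav9-2 was 98.5% identical to Trav9d-2, and Trav8n-2 92.6% identical to Trav8d-2. Part of the UMIs of these α segments could thus belong to a copy, as for Trav9-4. Pairs found in at least 5 cells made up 9.76% of Ccl5-high CD8 cells in Chow, 35.8% in MASH and 35.6% in MASH-Phe-free. The chance that 2 such cells shared a pair was 0.561%, 2.26% and 1.86%, against 0.298%, 0.321% and 0.275% in Ccl5-low CD8 cells. Chow had fewer cells in the set, and each library's mice are not known, so a group and a single mouse cannot be told apart.

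Among CD4 cells the pair that stood out was Trav6-1 with Trbv31 in Chow. It led 13 of 77 Ccl5-high CD4 cells (16.9% [9.31–27.1]) and 16 of 281 Foxp3-positive CD4 cells (5.69%). In Foxp3-positive CD4 cells it led 1 of 291 in MASH and 2 of 244 in MASH-Phe-free. In MASH, Trav6-1 led 7 of 291 such cells with Trbv2, a pair at 0 in Chow and MASH-Phe-free. Trav6-1 was higher in Foxp3-positive cells of every library. Its most frequent β partner there was Trbv31 in Chow and Trbv2 in MASH, the latter in only 7 cells.

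**Figure D5:**
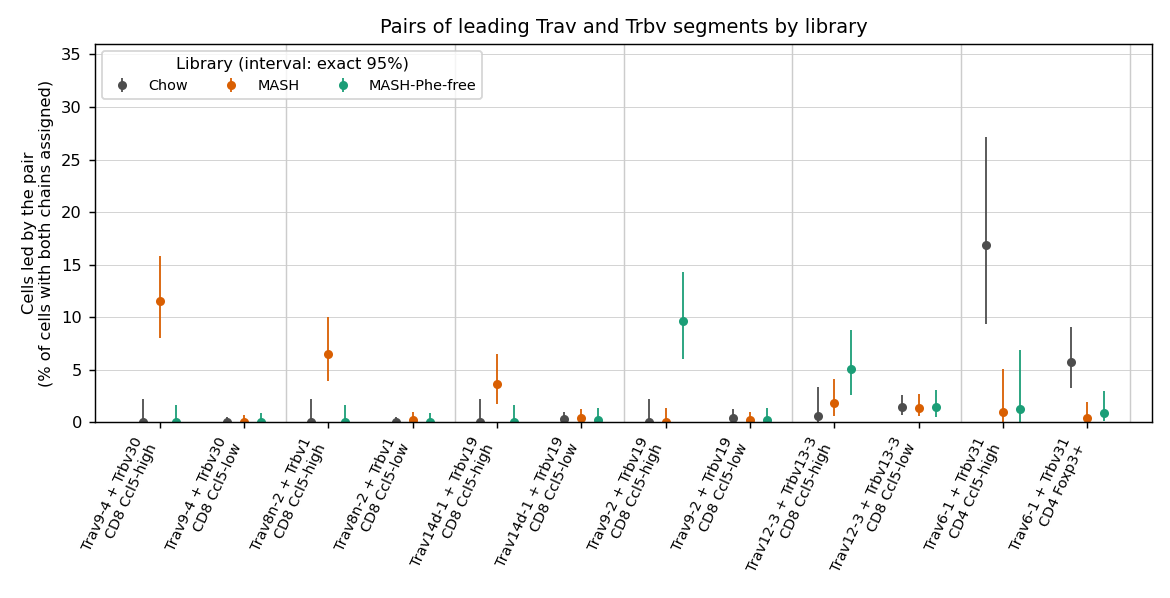
Share of cells led by each of 6 pairs of Trav and Trbv segments (percent of cells with both chains assigned, exact 95% intervals) in the sets named on the horizontal axis, coloured by library. Among Ccl5-high CD8 cells, Trav9-4 with Trbv30 stands at 11.5% in MASH and Trav9-2 with Trbv19 at 9.59% in MASH-Phe-free, each at 0% in the other libraries.

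The cells of these pairs were set beside the other cells of their own gate and library. The 32 MASH cells with Trav9-4 and Trbv30 had 29400 CPM of Ccl5, the gene of the gate, against 12100 in the other Ccl5-high CD8 cells, a ratio of 2.43 [2.36–2.49]. The granzyme gene Gzmk was at 932 against 455 CPM (ratio 2.05 [1.76–2.37]) and Gzmb at 640 against 339. Pdcd1, which encodes the inhibitory receptor PD-1, was at 380 against 164 CPM (ratio 2.32 [1.82–2.92]), and Tox, a transcription factor of chronically stimulated T cells, at 1040 against 543. The 18 cells with Trav8n-2 and Trbv1 had ratios of 1.89 for Pdcd1 and 1.55 for Tox. Not every pair shared all of this. The 10 MASH cells with Trav14d-1 and Trbv19 had ratios of 0.709 [0.507–0.965] for Tox, 0.696 for Gzmk and 0.186 for the transcription factor gene Eomes. Other genes were higher in these 10 cells, with ratios of 1.88 [1.45–2.41] for Gzmb, 1.74 for Ccl5, 1.54 for Pdcd1 and 2.39 for the transcription factor gene Tbx21. All 414 windows of Trav14d-1 were shared with Trav14n-1, so the α segment of this pair could not be told from that copy. In MASH-Phe-free, the 21 cells with Trav9-2 and Trbv19 had 30000 CPM of Ccl5 against 11300 and 793 of Gzmk against 375. The 11 MASH-Phe-free cells with Trav12-3 and Trbv13-3 had ratios of 1.53 for Gzmk, 1.15 [0.587–2.03] for Pdcd1 and 0.777 [0.501–1.15] for Tox. Cells of a pair come from 1 library and may be related, so the intervals cover counting of UMIs only.

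The 16 Chow regulatory cells with Trav6-1 and Trbv31 were set beside the other 345 Foxp3-positive CD4 cells. The pair was noticed in Ccl5-high cells, and 87.5% of these cells had a Ccl5 UMI against 20% of the others, so higher Ccl5 here follows from that choice, and genes that go with Ccl5 may too. Foxp3 itself was at 517 against 520 CPM. The cytotoxic granule gene Nkg7 was at 942 against 212 CPM, and the chemokine receptor gene Cxcr3 at 512 against 276. Within Ccl5-high CD4 cells, the 13 cells of the pair had a smaller ratio for Nkg7, 1.45 [1.21–1.72]. Back among all Foxp3-positive CD4 cells of Chow, Ikzf2, Ctla4 and Icos, genes expressed in regulatory cells, had ratios of 1.43, 1.56 and 1.6. The receptor gene Klrg1 was at 0.598 [0.256–1.2] there. Only 4 of 19 MASH cells with Trav8n-2 and Trbv1 had a Trbj UMI, and J segments were sparse in the other pairs too, so their use is not described.

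Some segments mark unconventional T cells. Invariant natural killer T cells use Trav11 joined to Traj18, and mucosal-associated invariant T cells use Trav1. Trav11 and Trav11d had 0 UMIs in all 3 libraries, which by the floor of 3 cells allows up to 0.0955%, 0.106% and 0.133% of T cells with a UMI (upper ends of the exact 95% intervals 0.117%, 0.131% and 0.164%), and Trav11n had 2, 7 and 3. Trav11 and Trav11d are 99.7% identical and have no unique window, so reads of either could go uncounted. Traj18 had a UMI in 17, 22 and 27 cells, and Trav1 in 40, 40 and 23. Trav1 was not called between CD4 and CD8 cells (log2 -0.71, edgeR adjusted p = 0.259).

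The segments that can also join in δ chains, marked dv in their symbols, were divided by Trdc, the constant gene of the δ chain. Of cells led by Trav15-2-dv6-2, 89.7%, 80.0% and 70.6% had a Trdc UMI, and of cells led by Trav15-1-dv6-1, 55.9%, 29.2% and 37.5%. Over all Trav-led cells the shares were 3.64%, 2.82% and 2.28%. Cells led by Trav14d-3-dv8 were at 1.69%, 3.36% and 4.82% and those led by Trav4-4-dv10 at 3.81%, 2.99% and 0%. Those led by Trav13-4-dv7 and Trav21-dv12 were between 0% and 8.62%, and 2 more dv symbols led 3 cells in all with no Trdc. Among the dv symbols leading at least 16 cells in every library, Trav15-2-dv6-2 and Trav15-1-dv6-1 thus had the highest Trdc shares.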

How the data were processed

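Spleen cells of 3 libraries were captured with a 10x Genomics 5′ single-cell kit, per the labels' protocols. The deposited values are counts of UMIs, whole numbers for each gene and barcode. Per the submitters' processing notes Cell Ranger 9.0.1, Seurat 5.3.0 and GRCm39/mm39 were used. The annotation release is not given in the sources used here. Feature and barcode files held identifiers only.

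A cell was kept with 300 or more genes, 500 or more UMIs and no more than 10% of its UMIs from mitochondrial genes. Doublets were not removed. UMIs were summed per library and gate (2452671 to 15097648 UMIs in each sum tested) and tested with edgeR 4.0.16 in R 4.3.3 (quasi-likelihood, TMM, filterByExpr, library as a block). Both gates of a comparison come from the same library, which pairs them, with 3 libraries. DESeq2 1.42.0 was an alternative, and the fits were tested on simulated data. Shares carry exact Clopper-Pearson 95% intervals, the limit given for a count of 0 is 3 counts of the total, CPM ratios exact conditional Poisson intervals, and ratios of led shares log-binomial intervals. Sequences were aligned with MAFFT 7.526, and the remaining steps used Python 3.11.15 with pandas 2.3.3, scipy 1.17.1, numpy 2.4.6 and matplotlib 3.10.9. Sequences and chromosomes came from a GRCm38 reference, so no coordinates are given. All 165 symbols matched RefSeq.

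Named segments were those leading at least 4% of cells, up to 6 called per direction and comparison by fold, up to 3 per direction between libraries by ratio of led shares, segments of known invariant or superantigen-related use, and ends of ranges. Members, lists and this rule were chosen with earlier results of these data known. The libraries are single samples, so p-values between subsets measure the spread over these 3 libraries. Alternatives were other scalings and filters, no block, leaving out a library, cells in place of UMIs, other gates and families. Values of some genes of the lists are not reported here.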

Additional observations from a re-analysis of the deposited data

Results flagged for a closer look

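Among CD8 cells, Trbv1 differed between Ccl5-high and Ccl5-low cells in opposite directions in different libraries. Its share of led cells in Ccl5-high over Ccl5-low cells was a ratio of 2.03 [1.49–2.76] in MASH, 0.457 [0.251–0.833] in Chow and 0.206 [0.0901–0.469] in MASH-Phe-free. Trbv31 did so too, with a ratio of 1.89 in Chow and 0.293 in MASH. With 1 library per group the difference was not tested in either case.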

How the results depend on the processing

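With the library as a block, 42, 18 and 12 members were called (CD4 against CD8, Foxp3, Ccl5), and with no replicate block 30, 12 and 7. Over all genes 29.2%, 39.8% and 36.9% were called with the block and 19.3%, 31.8% and 33.1% without it. Percentages in parentheses give the same share of all genes for the settings that follow. For CD4 against CD8, families gave 25 (29.2%), and leaving out 1 library gave 31 to 39 (20.2% to 24.6%). For Foxp3, no filter gave 33 (25.6%), cells with a UMI 11 (39.1%) and no cells with 2 Trbv segments 11 (33.5%). Leaving out 1 library gave 17 to 29 (29.8% to 32%), the highest without Chow. For Ccl5, DESeq2 gave 6 (20.5%), no filter 32 (22.7%), and leaving out 1 library 14 to 30 (27.9% to 34.2%), the highest without MASH. UMI totals in place of TMM, added after seeing the data, gave 47, 19 and 9 (33.3%, 43.5% and 39.4%). The members called by 1 setting were not always those called by another: of 11 Foxp3 calls by cells with a UMI, 7 were among the 18. Trav12-3 turned from 0.57 to -0.23 there, and the cause was not tested. Between MASH and Chow, 25 members past the fold became 14 with at least 100 UMIs, 7 at a 2-fold ratio, 8 as families, 9 by led share, 23 in the CD4 gate and 36 in the CD8 gate. Between MASH-Phe-free and MASH, 20 became 9, 5, 6, 7, 16 and 28. Over all genes, the 11.7% past the fold between MASH and Chow became 5.43%, 5.03%, 11.6%, 11.7% and 11.8%. The 10.4% between MASH-Phe-free and MASH became 3.51%, 4.06%, 10.3%, 10.8% and 8.45%. These follow the same order, and led shares have no such value. Mean shares over libraries were 13.4% for Trbv19 (11.1% of chain UMIs, 14.2% of thinned cells with a UMI, 14.7% without cells with 2 segments), 9.67% for Trbv13-3 (10.7%, 10.6%, 9.41%, and 9.87% with at least 2 UMIs), 7.08% for Trbv13-2 (5.51%, 13.2%, 4.62%) and 5.6% for Trbv12-2 (14.7% of thinned cells, 2.65% without cells with 2 segments). Depth limits the rare segments: a pair absent from 164 cells could still lead up to 1.83% of them.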
